A study of Mus musculus with 367 samples.

Results

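The 10 transcription factors described here mark or shape mesenchymal cells: Twist1, Twist2, Prrx1, Prrx2, Snai1, Snai2, Zeb1, Zeb2, Runx1 and Runx2. They were chosen by name, and all 10 of 10 were present among the 50600 genes of the files. The samples were 367 single cells from skin wounds of Sm22-Cre;tdTomato mice of mixed background, 3 to 8 weeks old, each given a square excisional wound of 1.5 cm per side on the back. Cells were collected at 3 times, on post-wounding day 12 (PWD12, 3 captures), day 15 (PWD15, 2 captures) and day 21 (PWD21, 2 captures), and all groups carried the same alleles and the same wound. In these mice Cre recombinase is driven by the promoter of Tagln, which encodes SM22, so tdTomato marks any cell in which that promoter has been active, at present or in the past. Viable tdTomato-high cells were sorted, captured singly on C1 chips (Fluidigm) and sequenced as full-length cDNA.

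Twist1 and Twist2 are basic helix-loop-helix factors, Prrx1 and Prrx2 are paired-type homeobox factors of limb and skin mesenchyme, Snai1 and Snai2 are zinc finger repressors, Zeb1 and Zeb2 combine zinc fingers with a homeodomain, and Runx1 and Runx2 share the Runt domain. Snail, Zeb and Twist proteins bind E-box motifs and are best known for repressing E-cadherin when epithelial cells turn mesenchymal. Runx2 drives bone formation, Runx1 blood cell formation, and both also act in fibroblasts. Zeb2 is in addition a factor of macrophages and of the mural cells that wrap small vessels, so its level alone does not name a cell type.

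The values were taken as FPKM, that is fragments scaled for transcript length and for each cell's total. That scale is meant to let levels of different genes be set side by side. The unit is not stated in the labels or methods and was read from the values, whose totals differ between cells, and comparisons between genes rest on it. A cell was called a matrix cell with Col1a1 of at least 1000 FPKM, Rgs5 under 100 and Tyrobp under 50, a mural cell with Rgs5 of at least 500 and Tyrobp under 50, and a myeloid cell with Tyrobp of at least 500. Of the 292 cells that passed the filters on depth and mitochondrial RNA, 198 were matrix cells, 57 mural cells, 26 myeloid cells, and 11 were of no kind. The median depth of a kept cell was between 949862 and 2325386 estimated fragments by capture, with both PWD15 captures the shallowest. Wound tissue of 2 to 3 mice was pooled at each time. Whether captures came from different mice is not stated, so the p-values below measure the spread between captures, which may be technical.

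The labels of the kinds were checked on other genes. Dcn and Lum were detected in 198 and 196 of the 198 matrix cells, but also in 55 and 48 of 57 mural and in 22 and 19 of 26 myeloid cells. Most cells of each kind thus had these genes above 0. Pdgfra, another matrix gene, was detected in 171 of 198 matrix, 17 of 57 mural and 5 of 26 myeloid cells. Median Dcn was 4611 FPKM in matrix, 86 in mural and 2.35 in myeloid cells. In the 57 mural cells Notch3 and Abcc9 were each detected in 52, Mcam in 51 and Kcnj8 in 42, against 13, 87, 32 and 5 of the 198 matrix cells. Fcer1g and Lyz2 were detected in 26 of 26 myeloid cells. The endothelial gene Cdh5 was above 0 in 2 matrix, 0 mural and 1 myeloid cells, and Krt5 and Cd3e, of keratinocytes and T cells, were at 0 in all 3 kinds. Tagln itself was detected in 128 of 198 matrix cells, 50 of 57 mural cells and 3 of 26 myeloid cells. The gates were not exclusive, since 19 of 57 mural cells (33.3%) also had Col1a1 of at least 1000 FPKM, and so had 4 of 26 myeloid cells (15.4%).

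The sequences in front of 4 factors are printed to show where those genes start. These are Zeb2, Prrx1 and Prrx2, which differed between the kinds, and Runx2, whose window held most copies of the Runt motif. Each window runs from 250 bases before to 50 bases after a RefSeq start (GRCm38.p6), on the strand of the gene, and capitals mark the motifs searched for. Zeb2 (minus strand) is at chr2:45117393-45117692, Prrx1 (minus strand) at chr1:163313601-163313900, Prrx2 (plus strand) at chr2:30845117-30845416 and Runx2 (minus strand) at chr17:44814578-44814877.
Zeb2: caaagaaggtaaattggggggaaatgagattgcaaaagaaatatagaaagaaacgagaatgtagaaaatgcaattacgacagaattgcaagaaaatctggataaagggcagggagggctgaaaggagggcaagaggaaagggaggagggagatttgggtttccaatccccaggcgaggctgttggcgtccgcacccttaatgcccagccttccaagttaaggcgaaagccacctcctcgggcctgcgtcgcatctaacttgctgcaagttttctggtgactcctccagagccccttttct
Prrx1: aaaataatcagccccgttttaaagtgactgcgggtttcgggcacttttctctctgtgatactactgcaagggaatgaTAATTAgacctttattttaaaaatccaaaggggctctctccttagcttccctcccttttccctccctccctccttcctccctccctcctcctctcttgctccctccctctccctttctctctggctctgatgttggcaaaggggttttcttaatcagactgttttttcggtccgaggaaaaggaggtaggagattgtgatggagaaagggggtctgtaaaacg
Prrx2: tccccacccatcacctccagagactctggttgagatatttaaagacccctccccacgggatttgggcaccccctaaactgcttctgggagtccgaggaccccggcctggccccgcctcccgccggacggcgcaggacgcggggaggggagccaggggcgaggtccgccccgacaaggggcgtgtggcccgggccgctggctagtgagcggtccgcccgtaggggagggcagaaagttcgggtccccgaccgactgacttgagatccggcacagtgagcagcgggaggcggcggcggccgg
Runx2: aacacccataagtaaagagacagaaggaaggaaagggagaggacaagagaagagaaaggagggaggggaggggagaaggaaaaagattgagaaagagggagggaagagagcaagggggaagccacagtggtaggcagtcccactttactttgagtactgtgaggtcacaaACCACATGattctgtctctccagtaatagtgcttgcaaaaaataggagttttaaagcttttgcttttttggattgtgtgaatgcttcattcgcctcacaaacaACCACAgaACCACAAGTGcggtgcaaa

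The windows were searched on both strands for 4 motifs. The core TAATTA is read by homeodomains, and TGTGGT is the motif of Runt proteins. The general E-box is CANNTG in its letters, where N is any base. The E-box preferred by Snail and Zeb proteins is CAGGTG, a special case of the general one. Windows were matched for 8 factors, while Snai2 and Zeb1 were without one. Zeb2 had 4 windows and Runx1 had 2, of which 1 each is described, so the counts below do not cover their other starts. TAATTA was found in the Prrx1 window and in no other of the 8, and it occurs in 5.29% of all 32851 promoter windows of this length. The Runt motif was found 3 times in the Runx2 window and 2 times in the Runx1 window, against 16.8% of all windows with at least 1 copy. Both general E-boxes of the Runx2 window overlap a copy of the Runt motif. CAGGTG was found in the Snai1 and Runx1 windows, against 20.2% of all windows. The general E-box was in 3 of the 8 windows (Snai1, Runx1 and Runx2), against 72.3% of all. The printed Prrx2 window lies 10395 bases inside the start of the longest gene model of GENCODE, so it belongs to a shorter transcript. A match is a description of letters and not a measured site.

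Prrx1, Zeb2 and Runx1 were the most abundant of the factors in matrix cells, which are the collagen-producing fibroblasts of the wound. For each capture the mean over its cells of log2(FPKM + 1) was taken as the level. The level in matrix cells was 4.71 ± 0.41 for Prrx1 (SD, n = 7 captures), 4.51 ± 0.69 for Zeb2 and 3.99 ± 0.85 for Runx1. Twist1 followed at 2.80 ± 0.58, Zeb1 at 2.25 ± 0.87 and Twist2 at 2.16 ± 0.70. The lowest on this scale were Snai2 at 1.78 ± 0.71, Runx2 at 1.65 ± 0.86, Prrx2 at 1.52 ± 0.76 and Snai1 at 1.17 ± 0.41. Each step between neighbours in this order was smaller than the SD of that step over the captures, the widest being that from Runx1 to Twist1 (1.18 ± 1.34, higher in 6 of 7 captures). The order of neighbours is therefore not settled by these captures. It also depended on the measure. As mean FPKM of the captures, Zeb2 (71.9), Prrx1 (55.2) and Runx1 (46.4) were still the highest. Prrx2 was at 30.4 FPKM by this measure, above Twist2 at 23.2 and Twist1 at 23.1. The 3 highest factors also had the most exonic bases, 19942 for Zeb2, 12025 for Runx1 and 11066 for Prrx1. Zeb1 with 10266 and Runx2 with 8837 bases were long too but lower in level. The part of gene length in this order was not tested.

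**Figure D1:**
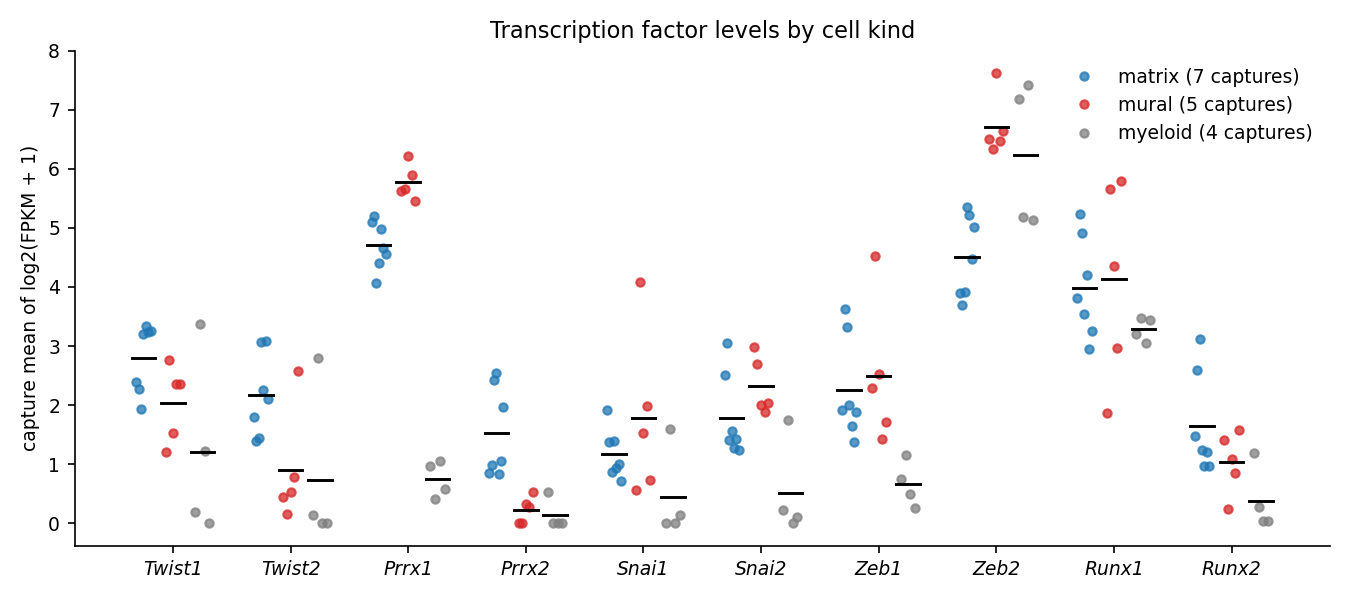
Levels of the 10 factors in matrix, mural and myeloid cells. Each point is the mean of log2(FPKM + 1) over the cells of one capture with at least 3 cells of that kind, and black lines are the means of the captures. Mural points of Zeb2 and Prrx1 lie above all matrix points, whereas mural points of Prrx2 lie below them.

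On the log2(FPKM + 1) scale, the same gene of each pair of relatives led in every capture of matrix cells. Prrx1 was above Prrx2 by 3.19 ± 1.14 on the log2(FPKM + 1) scale (SD, n = 7 captures, higher in 7 of 7), Runx1 above Runx2 by 2.34 ± 0.51, and Zeb2 above Zeb1 by 2.26 ± 1.42. The lead of Twist1 over Twist2 was 0.64 ± 0.42 and that of Snai2 over Snai1 was 0.61 ± 0.49, in 7 of 7 captures as well. For Zeb2 over Zeb1 the lead ranged from 0.07 in PWD12 capture 2 to 3.58, so the size of that lead differed widely between captures. By mean FPKM, which single high cells can carry, the order was not the same everywhere. Prrx2 was above Prrx1 in PWD12 capture 3 (42.5 and 34 FPKM) and PWD15 capture 1 (80.5 and 51.3 FPKM). Twist2 was above Twist1 in PWD15 capture 2 (43 and 27.5 FPKM) and PWD21 capture 1 (39.4 and 26.1 FPKM), and Snai1 was above Snai2 in PWD12 capture 3 (11.5 and 10.6 FPKM) and PWD21 capture 1 (17.6 and 8.62 FPKM). Zeb2 and Runx1 led by this measure too in all 7 captures. In mural cells the lead was 5.55 ± 0.36 for Prrx1 (n = 5 captures) and 4.22 ± 1.39 for Zeb2, and in myeloid cells 5.57 ± 1.35 for Zeb2 (n = 4 captures). Prrx1, Zeb2 and Runx1 led in all captures of both kinds. Twist1 led Twist2 in 4 of 5 mural and 3 of 4 myeloid captures, and Snai2 led Snai1 in 3 of 5 and 2 of 4.

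Co-detection of relatives in single cells is given beside the share of all matrix cells that had the more often detected gene. Of the 70 matrix cells with Prrx2, 98.6% also had Prrx1, against 94.4% of all matrix cells. Twist1 was in 86.7% of the 113 cells with Twist2 and 79.3% of all, and Runx1 in 88.3% of the 103 cells with Runx2 and 80.8% of all. Zeb2 was in 89.1% of the 119 cells with Zeb1 and 91.9% of all, and Snai2 in 44.3% of the 61 cells with Snai1 and 42.9% of all. These shares carry no test. The levels of relatives were only weakly related from cell to cell, with Pearson's r over the 198 matrix cells between -0.12 (Zeb1 and Zeb2) and 0.22 (Runx1 and Runx2), a description over cells that share captures and differ in depth. A matrix cell had a median of 6 of the 10 factors above 0 FPKM, a mural cell 5 and a myeloid cell 3. Each cell of the 3 kinds had at least 1.

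A factor counted as detected in a cell with a value above 0 FPKM. Such values include traces, since Col1a1 was above 0 in 26 of 26 myeloid cells at a median of 12.9 FPKM and Rgs5 was above 0 in 132 of 198 matrix cells at a median of 0.62 FPKM. Low shares are therefore given beside FPKM values where a result turns on them. For the 3 factors with a single transcript the fragments behind a value could be estimated, and the median was 14.9 for Twist1, 18.5 for Snai1 and 40 for Snai2 in cells with detection. Values resting on 3 or fewer fragments made up 16%, 24.1% and 20.3% of these.

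**Figure D2:**
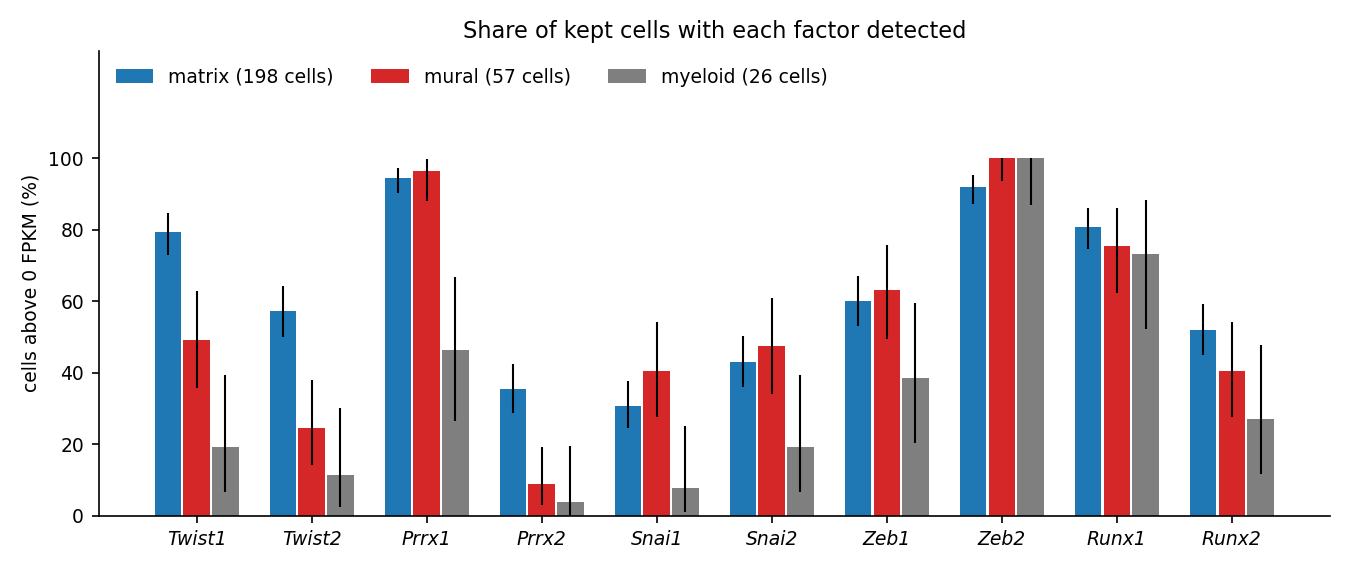
Share of kept cells above 0 FPKM for each factor, by kind. Bars are percentages of 198 matrix, 57 mural and 26 myeloid cells, and lines are 95% Clopper-Pearson intervals, which cover counting error only. Zeb2 reached 100% in mural and myeloid cells, and Prrx2 was found in 35.4% of matrix and 8.77% of mural cells.

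Mural cells differed from matrix cells in 2 of the 10 factors. Zeb2, the zinc finger and homeodomain factor, was higher in mural cells, and Prrx2, the rarer Prrx gene, was lower. Neither call held with no filter on low values, and Prrx2 passed that filter only through the matrix cells. The comparison used the 5 captures with at least 3 cells of both kinds and called 4.42% of the 13935 genes tested at an adjusted p of 0.05 (limma with the capture as a block, Benjamini-Hochberg over all genes tested). It rests on kinds set by 3 genes that are not among the factors.

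Zeb2 had a level in mural cells of 6.51, 6.33 and 7.62 in PWD12 captures 1, 2 and 3, of 6.47 in PWD15 capture 1 and of 6.64 in PWD21 capture 1. In matrix cells of the same captures it was 3.90, 3.69, 3.91, 5.36 and 4.48. All 5 mural values were above all matrix values, with no overlap, and the gap was narrowest in PWD15 capture 1. The difference was 2.44 (standard error 0.43, adjusted p = 0.0046, limma; 0.077 with no filter on low values), and 4.56% of all genes tested had no overlap between the kinds. Zeb2 was detected in 57 of 57 mural cells (95% Clopper-Pearson interval 93.7 to 100%) at a median among them of 120 FPKM and in 182 of 198 matrix cells (91.9%, 87.2 to 95.3%) at a median of 41.1 FPKM. As mean FPKM of a capture, its level was 301 ± 195 in mural cells (SD, n = 5) and 71.9 ± 37.1 in matrix cells (n = 7).

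Myeloid cells also expressed Zeb2, so myeloid RNA in the gates was looked at beside this result. Tyrobp was above 0 in 1 of 57 mural cells (1.75%) and in 7 of 198 matrix cells (3.54%). Of the 8 myeloid genes listed (Tyrobp, Fcer1g, C1qa, C1qb, Lyz2, Cd68, Ptprc and Csf1r), Fcer1g, C1qa and Ptprc were at 0 in all mural cells, while C1qb, Lyz2 and Csf1r were each above 0 in 5 and Cd68 in 3 of the 57. In matrix cells all 8 were above 0 in some cells, most often Csf1r (31 of 198) and C1qb (17 of 198). The summed level of the list had a median of 0 in mural cells (range 0 to 749 FPKM) and of 0 in matrix cells (0 to 1622 FPKM). With only cells at 0 FPKM of Tyrobp, a setting that was not planned, the Zeb2 difference was 2.47 (adjusted p = 0.0044, limma). The part of the other myeloid RNA in the Zeb2 difference was not tested. Zeb2 shares 653 exonic bases with the antisense gene Zeb2os, which was above 0 in 27 of the kept cells, and the counting is not stated to use strand.

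Prrx2 was listed at 0 in all mural cells of PWD12 captures 1 and 2, where 0 of 9 and 0 of 7 cells allow shares of up to 33.3% and 42.9%. Its mural level was 0.33 in PWD12 capture 3, 0.27 in PWD15 capture 1 and 0.52 in PWD21 capture 1. The matrix level in these 5 captures was 0.85, 0.98, 2.42, 2.55 and 1.06. The mural values were below the matrix values without overlap, although the matrix values were uneven, being highest in PWD12 capture 3 and PWD15 capture 1. The difference was -1.35 (standard error 0.32, adjusted p = 0.029, limma), and its size depended on the scale, at -4.18 with log2 of the mean FPKM and -2.21 with a pseudocount of 0.1. Prrx2 was detected in 5 of 57 mural cells (8.77%, 2.91 to 19.3%) and 70 of 198 matrix cells (35.4%, 28.7 to 42.4%), and 4 of the 5 mural cells were among those with Col1a1 of at least 1000 FPKM. The call was lost without PWD12 capture 1 (adjusted p = 0.059), PWD12 capture 3 (0.12) or PWD15 capture 1 (0.1), and with no filter on low values (0.22). That filter asked for an average of 1 FPKM, and Prrx2 averaged 0.955 FPKM in mural and 35.4 FPKM in matrix cells. Its entry into the test thus depended on the kind where it was high.

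Prrx1, the more abundant homeobox gene, was detected in 55 of 57 mural cells (96.5%) and 187 of 198 matrix cells (94.4%). Its level in mural cells was 5.62, 5.66, 6.22, 5.90 and 5.46 in the 5 captures, and in matrix cells 5.10, 5.20, 4.06, 4.41 and 4.66. These values do not overlap, and mural cells were higher in 5 of 5 captures. The difference of 1.09 (standard error 0.41, 95% interval 0.20 to 1.97) did not pass the test over all genes (adjusted p = 0.19, limma).

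**Figure D3:**
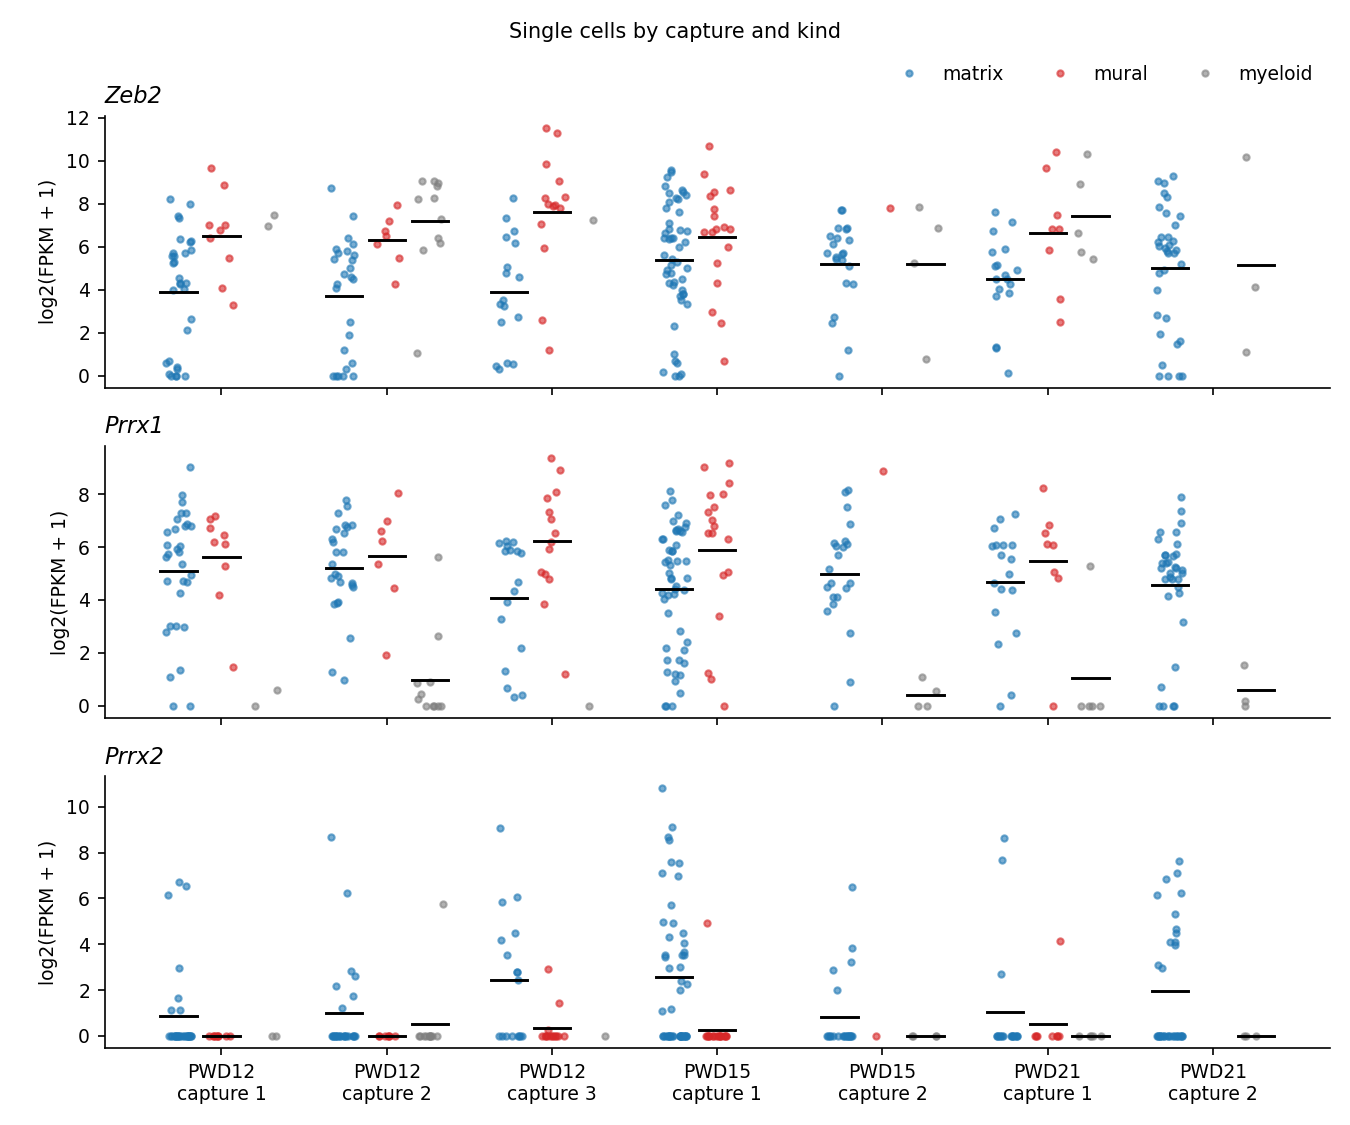
Zeb2, Prrx1 and Prrx2 in single kept cells as log2(FPKM + 1), by capture and kind. Each point is a cell and black lines are means of groups of at least 3 cells. Prrx2 is above 0 in 70 of 198 matrix and 5 of 57 mural cells, and Prrx1 in 187 and 55 of them.

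Twist2, which acts in the dermal lineage, had mural levels of 0.45, 0.15, 0.53, 0.79 and 2.57 and matrix levels of 1.80, 1.39, 1.45, 3.06 and 3.09 in the same captures. Mural cells were lower in 5 of 5 captures, but the mural value of PWD21 capture 1 lay within the range of the matrix values. The difference of -1.26 (standard error 0.35, 95% interval -2.01 to -0.51) missed the threshold (adjusted p = 0.06, limma). It passed without PWD21 capture 1 (-1.44, adjusted p = 0.036) and with a pseudocount of 0.1 (-2.27, adjusted p = 0.029). Twist1 was detected in 28 of 57 mural cells (49.1%) and 157 of 198 matrix cells (79.3%), with a difference in level of -0.57 (95% interval -1.37 to 0.23, adjusted p = 0.51).

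For the other 5 factors the difference between mural and matrix cells did not pass the test. Runx2 differed by -0.89 (95% interval -1.81 to 0.03), Snai1 by 0.47 (-0.56 to 1.50) and Snai2 by 0.33 (-0.41 to 1.06). Zeb1 differed by 0.05 (-0.77 to 0.87) and Runx1 by 0.04 (-1.19 to 1.27), values whose sign changed with the settings. The intervals of Snai1, Snai2 and Runx1 reach beyond 1 on the higher side, and those of Runx1 and Runx2 beyond 1 on the lower side. Over the 10 factors the median difference was 0.04, and over all genes -0.04.

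The mural cells themselves were uneven in these factors. In the 19 mural cells with Col1a1 of at least 1000 FPKM Twist2 was detected in 12 (63.2%), and in the other 38 in 2 (5.26%). Runx2 was detected in 14 of 19 and 9 of 38, Twist1 in 15 of 19 and 13 of 38, and Snai2 in 13 of 19 and 14 of 38. Zeb2 and Prrx1 were found in nearly all cells of both sets, with 19 of 19 and 38 of 38 cells for Zeb2 at medians of 113 and 127 FPKM, and 18 of 19 and 37 of 38 cells for Prrx1 at 72 and 91.3 FPKM. These shares are over cells and carry no test. Wells seen under the microscope to hold more than a single cell had been left out by the authors, and no further test for doublets was made.

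The comparison was repeated with the 38 mural cells under 1000 FPKM of Col1a1, a choice made after these shares were seen, so that values of factors that differ between the sets restate them and are a description. Twist2 then had a mural level of 0.05 and a difference of -2.11, Prrx2 a difference of -1.52 and Runx2 one of -1.53. Zeb2, which was in all cells of both sets, differed by 2.56 (adjusted p = 0.023, limma). The signs of Snai2 (-0.67), Zeb1 (-0.53) and Runx1 (-0.67) turned.

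**Figure D4:**
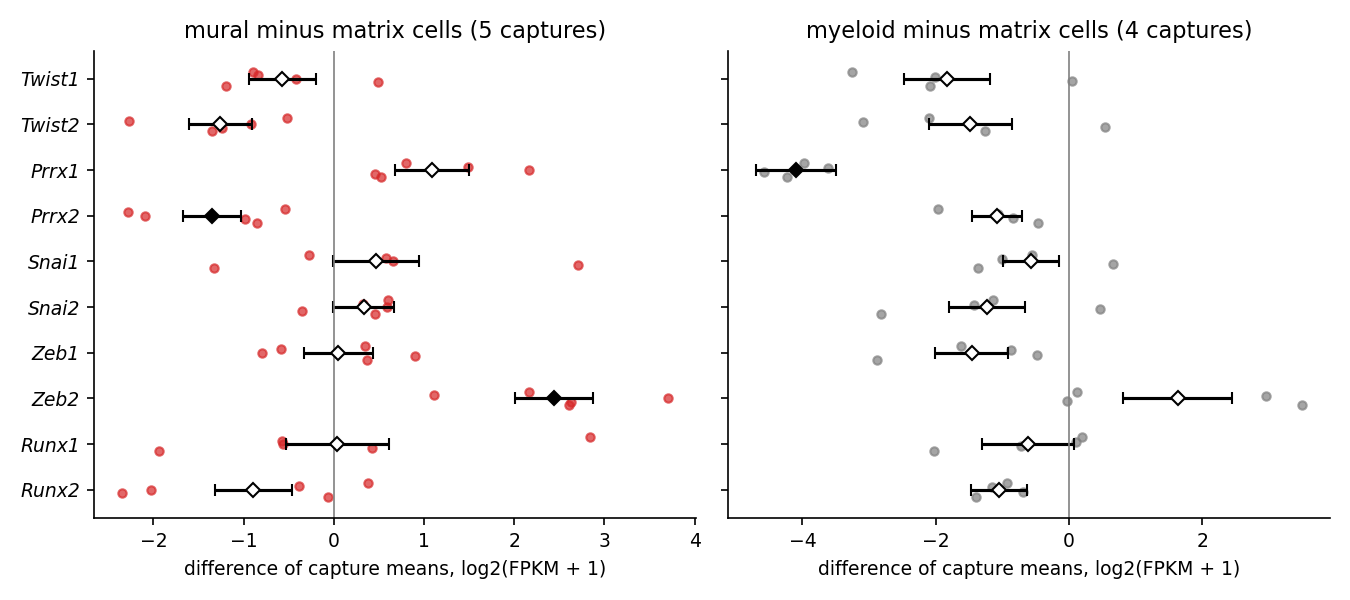
Differences between kinds for each factor, as mural minus matrix and myeloid minus matrix means of log2(FPKM + 1). Coloured points are captures, diamonds are the fitted differences with their standard errors, and a filled diamond passed an adjusted p of 0.05. Zeb2 and Prrx2 are filled for mural cells and Prrx1 for myeloid cells.

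Myeloid cells differed from matrix cells in 1 of the 10 factors, Prrx1. The comparison used 4 captures and called 6.85% of 13498 genes. Prrx1 had a level in myeloid cells of 0.97 in PWD12 capture 2, 0.41 in PWD15 capture 2, and 1.05 and 0.58 in PWD21 captures 1 and 2. In matrix cells it was 5.20, 4.98, 4.66 and 4.56. The means of the kinds were far apart in each capture, although values of single cells overlapped. The difference was -4.10 (standard error 0.60, adjusted p = 0.0022, limma). Prrx1 was above 0 in 12 of 26 myeloid cells (46.2%) but at a median of 0.835 FPKM in these, and it reached 10 FPKM in 2 of 26, against 152 of 198 matrix cells and 49 of 57 mural cells.

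Zeb2 was detected in 26 of 26 myeloid cells, with levels of 7.19, 5.18, 7.42 and 5.13 in the 4 captures, against 3.69, 5.22, 4.48 and 5.01 in matrix cells. Myeloid cells were well above in PWD12 capture 2 and PWD21 capture 1 and close to the matrix cells in the other 2. The difference of 1.63 (95% interval -0.16 to 3.42) did not pass the test (adjusted p = 0.22, limma). The 2 captures with close values held 4 and 3 myeloid cells.

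The other 8 factors were lower on average in myeloid cells without passing the test. The differences were -1.83 for Twist1 (adjusted p = 0.1), -1.48 for Twist2 (0.16), -1.46 for Zeb1 (0.12), -1.23 for Snai2 (0.19) and -1.08 for Prrx2 (0.095), and they were -1.05 for Runx2 (0.14), -0.62 for Runx1 (0.58) and -0.57 for Snai1 (0.39). PWD15 capture 2 stood apart, since Twist1 was at 3.38 and Twist2 at 2.79 in its 4 myeloid cells, and at most 1.22 and 0.13 in the other captures. The summed level of the 6 matrix genes (Col1a1, Col1a2, Col3a1, Dcn, Lum and Pdgfra) had a median of 15049 FPKM in these 4 cells and of 8.8 to 126 FPKM in the other captures compared, and its part in the Twist values was not tested. Without it Twist1 (-2.45, adjusted p = 0.042) passed, and Twist2 reached -2.15 (adjusted p = 0.05 as rounded) and was called too. Runx1 was above 0 in 19 of 26 myeloid cells (73.1%). On the log2(FPKM + 1) scale it was the factor with the most even myeloid levels (3.29 ± 0.20, SD, n = 4). As mean FPKM of the captures it was uneven, at 46.3 ± 28.6. The median difference was -1.15 over the 10 factors and -0.23 over all genes tested, and 3 factors (Prrx1, Prrx2 and Zeb1) did not overlap between the kinds, as did 18.8% of all genes.

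Between days, none of the 10 factors passed the test in matrix cells. From day 12 to day 15, 0.206% of 13584 genes were called, from day 12 to day 21 0.486%, and from day 15 to day 21 0%, where 555 genes had an unadjusted p under 0.05 (limma, all 7 captures in 1 fit, Benjamini-Hochberg over all genes tested). Of the factors, 4, 3 and 0 had an unadjusted p under 0.05 in these comparisons, against 12.1%, 11.8% and 4.09% of all genes. The values of the factors that varied most are given as a description. The comparisons with day 12 share its 3 captures. Matrix cells had a median of 972810 estimated fragments at day 15, against 1620903 at day 12 and 2244771 at day 21, and the part of depth in these values was not tested.

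The Twist genes had lower levels on day 12 than later. Twist1 was at 2.39, 2.27 and 1.94 on day 12, at 3.20 and 3.34 on day 15, and at 3.24 and 3.25 on day 21. Twist2 was at 1.80, 1.39 and 1.45, then at 3.06 and 2.26, then at 3.09 and 2.10. In both genes all later captures were above all day 12 captures. The differences at day 15 were 1.07 for Twist1 (95% interval -0.03 to 2.16, adjusted p = 0.43) and 1.11 for Twist2 (0.06 to 2.16, adjusted p = 0.39), and those at day 21 were both 1.05. Twist2 was detected in 32 of 74 matrix cells on day 12 (43.2%), 51 of 72 on day 15 (70.8%) and 30 of 52 on day 21 (57.7%).

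The mean values of Zeb2 were higher and those of Zeb1 lower on the later days. Zeb2 was at 3.90, 3.69 and 3.91 on day 12, at 5.36 and 5.22 on day 15, and at 4.48 and 5.01 on day 21. The later captures lay above the day 12 captures, with a difference of 1.45 at day 15 (95% interval 0.18 to 2.72, adjusted p = 0.34). Zeb1 was at 1.92, 3.63 and 3.33 on day 12, at 2.00 and 1.64 on day 15, and at 1.38 and 1.88 on day 21. PWD12 capture 1 lay between the day 15 values, and captures 2 and 3 lay above all later values. The difference was -1.14 at day 15 (-2.26 to -0.01, adjusted p = 0.41). Zeb1 shares 198 exonic bases with Gm10125 on the other strand, which was above 0 in 263 kept cells, so reads of both genes may not be told apart.

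The Runx genes had their highest mean levels on day 12. Runx1 was at 3.81, 5.24 and 4.92 on day 12, at 3.54 and 4.20 on day 15, and at 2.95 and 3.25 on day 21. Runx2 was at 1.47, 2.60 and 3.12, then at 1.24 and 0.96, then at 1.20 and 0.97. For Runx2 all later captures were below the day 12 captures, while for Runx1 PWD15 capture 1 and both day 21 captures were, and PWD15 capture 2 was not. The differences at day 21 were -1.55 for Runx1 (95% interval -2.85 to -0.26, adjusted p = 0.33) and -1.31 for Runx2 (-2.32 to -0.30, adjusted p = 0.29). Runx2 was detected in 52 of 74 matrix cells on day 12 (70.3%), 32 of 72 on day 15 (44.4%) and 19 of 52 on day 21 (36.5%).

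The values of the Prrx and Snail genes overlapped between the days. Prrx1 had means of 4.79, 4.69 and 4.61 on days 12, 15 and 21 and was detected in at least 90.4% of matrix cells on each. Prrx2 was high in 1 capture of each day, at 2.42 in PWD12 capture 3, 2.55 in PWD15 capture 1 and 1.96 in PWD21 capture 2, and between 0.84 and 1.06 in the others. Snai2 was at 2.51, 3.05 and 1.41 on day 12 and between 1.24 and 1.56 later, and the difference at day 15 was -0.91 (95% interval -1.94 to 0.12). Snai1 differed by -0.21 at day 15 (-1.08 to 0.65) and by -0.53 at day 21 (-1.39 to 0.34).

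**Figure D5:**
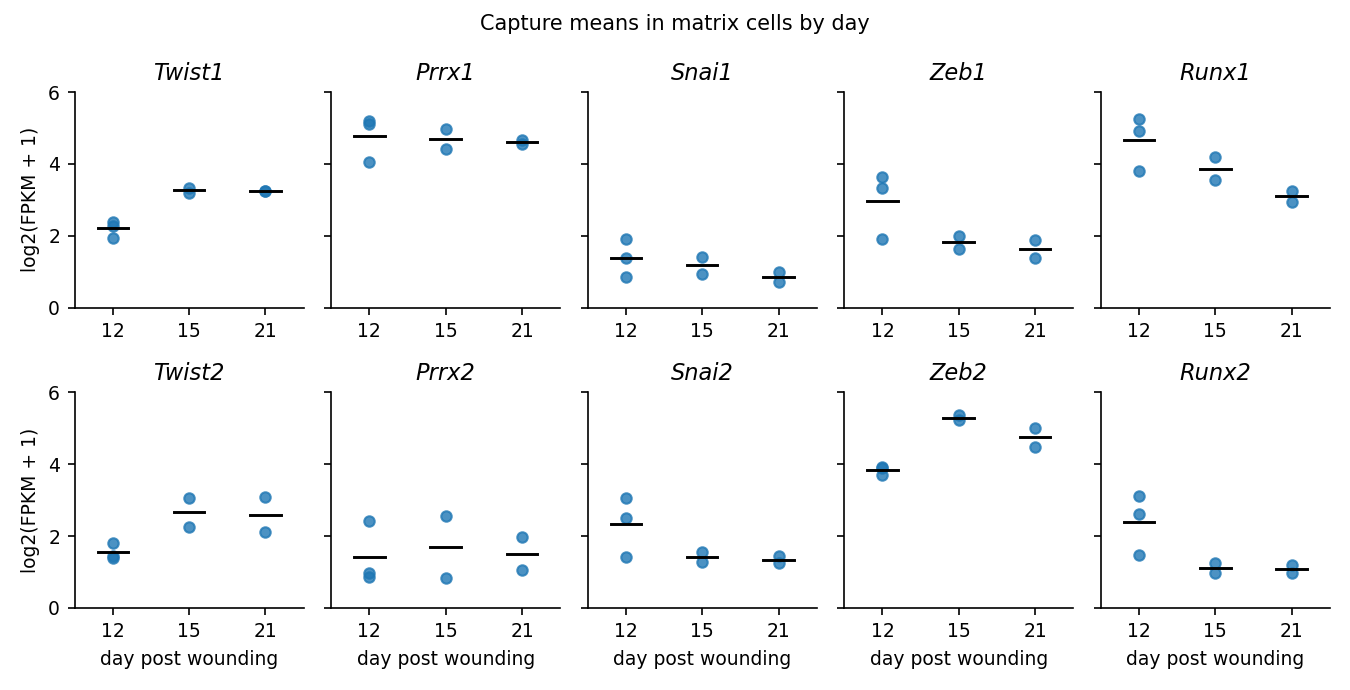
Levels of the 10 factors in matrix cells by day post wounding. Each point is the mean of log2(FPKM + 1) over the matrix cells of 1 capture and lines are the means of the captures of a day. Twist1, Twist2, Zeb2 and Runx2 show no overlap between day 12 and day 15, and none of the differences passed the test.

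Read against all genes, this separation was common. Captures of day 12 and day 15 did not overlap for 4 of the 10 factors (Twist1, Twist2, Zeb2 and Runx2) and for 28.3% of the 13584 genes. Between day 12 and day 21 it was 6 of 10, with Zeb1 and Runx1 in addition, against 26.8% of genes. The median difference over the factors was -0.15 at day 15 and -0.35 at day 21, and over all genes -0.20 and -0.17.

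The mural minus matrix difference was also compared between day 12 (3 captures) and the later days (2 captures). None of the 10 factors passed, and 0% of the 13935 genes did (limma, 651 at an unadjusted p under 0.05). The Zeb2 difference was 2.98 on day 12 and 1.63 later, a change of -1.35 (standard error 0.67, adjusted p = 0.99). That of Runx2 was -1.48 and -0.00, and that of Runx1 was -0.69 and 1.14.

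Genes that work with or beside the factors were read from lists, chosen with earlier results of these data known. Among 10 partners and inhibitors, which include the E proteins that pair with Twist and the Id proteins that block them, Id3 was higher in mural cells (3.70 in matrix cells, a difference of 2.30, adjusted p = 0.041) and Id2 lower (3.28 and 1.34, adjusted p = 0.0087). In myeloid cells 9 of the 10 could be tested, Id2 was higher (4.31 in matrix, 7.99 in myeloid cells, adjusted p = 0.025), and the E proteins Tcf12 (4.22 and 1.03, adjusted p = 0.011) and Tcf4 (7.46 and 4.92, adjusted p = 0.045) were lower. Of 6 genes listed as relatives of the factors 2 passed the filter on low values, and Runx1t1 was lower in myeloid cells (5.63 and 1.60, adjusted p = 0.0058). Runx1t1 is a corepressor known as a fusion partner of RUNX1 in leukaemia and is not itself a Runx gene.

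Among 9 junction and filament genes known as targets of these factors, Cdh1 (E-cadherin), Epcam, Ocln and Dsp did not pass the filter in any comparison. Of the 4 tested between mural and matrix cells, Cdh11, a mesenchymal cadherin (6.13 in matrix, 3.46 in mural cells, adjusted p = 0.0038), and Fn1, fibronectin (8.58 and 6.67, adjusted p = 0.033), were lower in mural cells. Both were lower in myeloid cells too, together with Vim, vimentin, which made 3 of 5 tested. None of the 3 osteogenic targets tested passed in either comparison. Between days no gene of any list passed the threshold.

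Other mesenchymal or mural transcription factors gave 6 higher and 1 lower of 15 tested in mural cells. Nr2f2, a nuclear receptor of vein and mural cells, was at 2.55 in matrix and 7.74 in mural cells (adjusted p = 1.6e-05), and Ebf1 was at 2.70 and 6.94 (adjusted p = 0.00035). Heyl, a target of Notch signalling, was at 0.23 and 2.63 (adjusted p = 0.018), Ebf2 at 0.16 and 2.27 (adjusted p = 0.0036) and Meox2 at 0.70 and 2.25 (adjusted p = 0.02). Ebf2 did not pass the filter on low values in the comparisons without mural cells. It was thus tested here only through the mural cells, where it was high. Nfix was the lower one, at 4.86 and 2.27 (adjusted p = 0.0037). In myeloid cells 4 of 14 were lower, namely Nfix, Nfia, Ebf1 and En1. Median differences of this list were 0.14 in mural and -0.97 in myeloid cells, beside -0.04 and -0.23 over all genes.

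The genes most like each factor were found over the 16 means of capture and kind, among the 14319 genes whose average reached 1 FPKM. Prrx1 was most like Ece1 and Cald1 (Pearson's r = 0.95 each) and Mfge8 (0.94). Zeb2 was most like Inpp4b (0.82), Gucy1a2 (0.78) and Slc29a1 (0.77), the loosest likeness of the 10. Twist1 was most like Cavin3 (0.92), Eprs (0.87) and Heg1 (0.85), and Twist2 like Fhod3 (0.94), Omd (0.92) and Nt5e (0.91).

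Prrx2 was like Narfl (0.89) and Adgrd1 (0.88). Snai1 was most like Tpmt (0.95), Mob2 (0.92) and Selenoo (0.91), and Snai2 like Lims1 and Gm26523 (0.92 each) and Sdc2 (0.91), where Gm26523 is a long RNA gene lying within Prrx1. Zeb1 was most like Fhl2 and Gm26735 (0.94 each) and Sdc1 (0.93). Runx1 was most like Gnb1l (0.86), Ap3b1 (0.85) and BC029722 (0.82), and Runx2 like Slc25a26 (0.91), Aldh3a2 and Rcbtb1 (0.90 each). The points share captures and are few, and the highest of many correlations is high by selection, so these are descriptions only.

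By position, Twist1 is on chromosome 12 from 33957671 to 33959829 of GRCm38 (GENCODE release 21) and Twist2 on chromosome 1 from 91801461 to 91848028. Prrx1 lies on chromosome 1 from 163245119 to 163313710, and Prrx2 on chromosome 2 from 30834972 to 30881251. Snai1 is on chromosome 2 from 167538195 to 167542814 and Snai2 on chromosome 16 from 14705852 to 14709385. Zeb1 is on chromosome 18 from 5591860 to 5775467 and Zeb2 on chromosome 2 from 44983632 to 45117395. Runx1 lies on chromosome 16 from 92601466 to 92826149 and Runx2 on chromosome 17 from 44495987 to 44814797. Each value is over the whole gene, so transcripts of a gene, from 1 for Twist1, Snai1 and Snai2 to 29 for Zeb2, were not told apart.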

How the data were processed

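Full-length cDNA of single tdTomato-high wound cells from 7 C1 captures was sequenced. The deposited values, taken as FPKM from their range and totals since no source used here names the unit, were made by the authors with Bowtie 1.0.0 and RSEM on mm10 with GENCODE release 13. Symbols and positions come from GENCODE release 21, which matched 50376 of 50600 gene identifiers. The RSEM command given in the methods sets no strand option.

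Cells under 160000 estimated fragments (27), over 11000 genes (1) or over 15% mitochondrial FPKM (51) were removed, in overlapping sets, which left 292 of 367. Fragments were estimated from the smallest steps of FPKM values over 9426 genes with a single transcript of at least 1000 bases, for an assumed fragment length of 300 bases. Intervals of shares are 95% Clopper-Pearson intervals, and the limit set by a count of 0 is 3 cells of the total. Both cover counting error only. The authors kept wells with a single cell by microscopy, and no doublet caller was run.

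The replicate was the capture. Per capture and kind with at least 3 cells, the mean of log2(FPKM + 1) was tested with limma 3.58.1 (R 4.3.3, trended variance, two-sided, Benjamini-Hochberg adjustment over all genes averaging 1 FPKM or more, threshold 0.05). The capture was a block between kinds, and days were compared without a block. The pseudocount of 1 understates the change of low genes. The code was tested on simulated data with 200 changed genes.

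The members are the listed genes and were all described. Listed genes are named where they passed the threshold, with up to 3 genes most like each member, and a few such results are not reported here. The members and lists were chosen with earlier results of these data known. Samples were grouped by the day and capture in their labels. One matrix was assigned to PWD12 capture 3 by day, capture and cell number, since the description of those cells names another file. Alternatives covered the averaging, scaling, pseudocount, gene and cell filters, limits of the kinds, blocks and left-out captures. Proteins, and promoters of Snai2 and Zeb1, were not analysed here.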

Additional observations from a re-analysis of the deposited data

How the results depend on the processing

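The Prrx1 difference between myeloid and matrix cells passed under all 12 alternatives (adjusted p from 0.00095 to 0.048, limma). Zeb2 in mural cells passed in 14 of 15, the exception being no filter on low values, where more genes are tested (adjusted p = 0.077). Prrx2 passed in 11 of 15 and Twist2 in 5 of 15, of which the limit on Col1a1 in mural cells was chosen after its Twist2 values were seen. Members called between mural and matrix cells numbered 0 with no filter on low values and 1 to 3 when a capture was left out. Genes called there numbered 233 with log2 of the mean FPKM, 167 with no filter on low values, and 365 to 681 without a capture. In myeloid cells 2 members passed with a pseudocount of 0.1 and 1 to 3 without a capture, while genes called numbered 101 with no filter on low values, 604 with at least 500000 fragments, and 363 to 843 without a capture.

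Between day 12 and day 15 the called genes numbered 0 with log2 of the mean FPKM, 54 with a pseudocount of 0.1, 0 with no filter on low values, 7 with at least 500000 fragments, 7 with stricter kinds and 0 to 62 without a capture. Between day 12 and day 21 they numbered 1 with log2 of the mean, 0 with no filter on low values and 0 to 78 without a capture, and between day 15 and day 21 0 to 3 without a capture. With the capture number as a replicate block for the days, 3 and 30 genes were called against day 12, and still 0 members. Whether same-numbered captures share more than a number is not known. Their deviations correlated between -0.02 and 0.12. These values cannot decide it, since days 15 and 21 had 2 captures each and differently numbered captures were not set beside them. Without the block between kinds, 434 genes and 2 members were called for mural cells and 1018 genes and 1 member for myeloid cells.

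Signs turned for small differences that never passed. Between mural and matrix cells, with log2 of the mean FPKM Snai1 was -0.25 and Zeb1 -0.05, with no cell filter Zeb1 was -0.26 and Runx1 -0.28, with stricter kinds Zeb1 was -0.11 and Runx1 -0.07, and with Tyrobp at 0 Zeb1 was -0.09 and Runx1 -0.01. With Col1a1 under 1000 FPKM Snai2 was -0.67, Zeb1 -0.53 and Runx1 -0.67. Runx1 was -0.05 scaled to the same total and -0.14 with a pseudocount of 0.1. Leaving out 1 capture at a time gave -0.09 to 0.92 for Snai1, -0.17 to 0.26 for Zeb1 and -0.66 to 0.53 for Runx1. At day 15 Prrx1 was 0.06 with log2 of the mean, and leaving out captures gave -0.46 to 0.19 for Prrx1, -0.58 to 1.13 for Prrx2 and -0.47 to 0.05 for Snai1. At day 21 Prrx2 was -0.08 with a pseudocount of 0.1, and leaving out captures gave -0.36 to 0.60 for Prrx2 and -0.54 to 0.03 for Prrx1. The cause was not tested. The test of days within the kinds could not be run without PWD15 capture 1 or PWD21 capture 1. Of 60 alternative shares of cells, 11 moved by more than the SD over captures.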

Other observations

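The 11 kept cells that met none of the 3 kinds also had values above 0 FPKM for these factors, in part as traces. Zeb2 was detected in 11 of 11 of them at a median of 153 FPKM, Runx1 in 10 at 9.68 FPKM and Prrx1 in 9 at 10.8 FPKM. Zeb1 was detected in 8, Snai2 and Runx2 in 6 each, Twist1 and Twist2 in 4 each, Prrx2 in 2 and Snai1 in 1. Medians were 0.91 FPKM for Zeb1, 0.88 for Snai2, 0.11 for Runx2 and 0 for Twist1, Twist2, Prrx2 and Snai1. PWD15 capture 1 held 5 of these cells, PWD21 capture 1 held 3, PWD21 capture 2 held 2 and PWD12 capture 2 held 1.

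Over the 16 means of capture and kind, Twist1 and Twist2 had Pearson's r of 0.80, Prrx1 and Snai2 of 0.74, and Snai2 and Zeb1 of 0.74. Zeb2 had negative values with all 9 others, from -0.53 with Prrx2 to -0.07 with Prrx1. These points share captures and kinds, so the values are a description.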
